A study of Capra hircus with 10 samples.

Results

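Long-span circRNAs, here the circRNAs whose back-splice junction joins positions at least 20 kb apart in the genome, were examined in cultured intramuscular fat cells of the goat, as preadipocytes (IMPA) and after induction as adipocytes (IMA). They were chosen by the deposited genomic length alone, without regard to read counts, and numbered 250 of the 1327 circRNAs with deposited counts (18.8%). The choice of this set was made with earlier results of these data known. The remaining 1077 circRNAs spanned less. The cells were wild-type, came from the intramuscular fat of the longissimus dorsi of 3 male Jianzhou goats aged 7 days, and were induced towards adipocytes with oleic acid. IMPA libraries were taken at day 0 and IMA libraries at day 3 of this induction, with 5 libraries each. Which goat gave which library is not stated, so some libraries of a group must share an animal, and the p-values measure the spread between libraries.

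A circRNA is formed when a downstream splice donor is joined to an upstream splice acceptor, so that the exons between them close into a ring. The junction of the ring is absent from the linear transcript of the gene, and reads across it count the circle, whereas reads that run through the same splice sites without back-splicing count the linear transcript. The genomic span of a circRNA includes introns that are spliced out, while its spliced length counts only the exons retained. Long introns next to circularised exons, repeats that can pair, and RNA-binding proteins such as Quaking are known to favour circle formation. Libraries were made from RNA depleted of ribosomal RNA, which keeps circles that lack a poly(A) tail.

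Each IMPA library held 11421 to 15553 junction reads and each IMA library 9622 to 12499, of which 1858 to 2561 and 1669 to 2007 lay on long-span circRNAs. The smallest count above 0 was 2, and 67.8% of the counts above 0 of long-span circRNAs were under 10. No junction read fell in these 10 libraries on 4 of the 250, which left 246. The cell type named in the labels could be checked only through host genes of circRNAs. Of 10 adipocyte markers, PDE3B alone hosted a circRNA, with 2 to 4 reads per IMPA library and 0 to 4 per IMA library. Of 10 striated muscle markers, MYBPC1, MYPN and PAX7 did, with 13 to 21 summed reads per IMPA library and 20 to 42 per IMA library, and the part of these cells in the results below was not tested. Fibroblast, endothelial and blood cell markers hosted none, and no marker of any of these lists hosted a long-span circRNA. In such bulk samples, fewer cells of a type and less RNA per cell cannot be told apart.

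The study designed divergent primers across the junctions of the pair of long-span circRNAs whose junction reads changed in the test below. They are shown 5′ to 3′ because they are the only sequences of these circles used here, with no letter in capitals. circ_0006499 arises from LMO7, a LIM-domain protein of cell junctions and the actin cytoskeleton, on the minus strand of chromosome 12 from 35520126 to 35552054. circ_0003129 arises from WHSC1, a histone methyltransferase, on the plus strand of chromosome 6 from 115901670 to 115924848. Locations are given as deposited, and their genome build was not given in the sources used here. The reverse primer of circ_0006499 was also listed for circ_0006511, a shorter circle of LMO7 with the same upper end. By qRT-PCR, the paper reports circ_0006499 as up regulated and circ_0003129 as down regulated, the directions of its own RNA-seq calls.
circ_0006499 forward: tcagttgaagcaggtagccc
circ_0006499 reverse: agtgttgggaacgcttgtct
circ_0003129 forward: ccaccctcaccttcagcaaaa
circ_0003129 reverse: gcgtcagacaggtgtttcgt

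The rings themselves had listed lengths close to those of other circRNAs. The median span was 28300.5 bases (20005 to 93141) against 5926 bases in the remaining circRNAs, yet the median listed spliced length was 314.5 bases (81 to 667) against 323 bases (30 to 672). Across the 250, span and spliced length had a Spearman's rho of 0.0028, and of -0.0202 across all 1327. These are descriptions across circRNAs, many of which share a host gene. The listed exons made up a median of 1.04% of the span in long-span circRNAs and 5.12% in the others. With spliced lengths so close, this difference follows largely from the span rule.

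**Figure D1:**
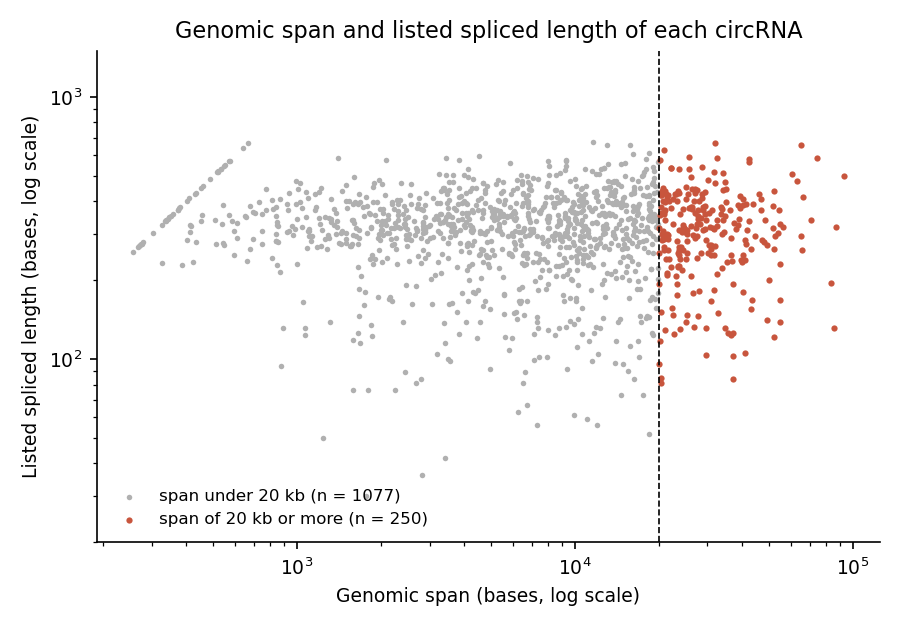
Listed spliced length (bases, log scale) against genomic span (bases, log scale) of each circRNA, with red points for the 250 long-span circRNAs, grey points for the other 1077 and a dashed line at 20 kb. Spliced length was at most 672 bases at every span, and the long-span circRNAs occupied the same range as the rest.

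In most long-span circRNAs a single stretch without a listed exon took up nearly all of the span. This longest stretch had a median of 23422.5 bases, or 90.9% of the span, against 4299 bases and 77.5% in the remaining circRNAs. These differences follow largely from the span rule, since the listed spliced lengths were alike. The stretch reached at least 20 kb in 180 long-span circRNAs, a length that a span under 20 kb cannot hold. Its maximum was 86803 bases in circ_0010317 of RUNX2, a transcription factor of bone formation. By annotation, 241 were exonic, 4 intronic (a pair of MARK3, 1 of KDM4C and 1 of RANBP17) and 5 intergenic. The exonic ones held a median of 3 listed exons against 2 in the rest, and 4 or more exons were listed for 22.8% against 15.4%. The rest include the circRNAs of 2 kb or less, where 1.51% had 4 or more. Within the long-span set this was 21.6% at 20 to 30 kb, 26.9% at 30 to 50 kb and 16.7% at 50 kb or more.

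The listing of exons was incomplete for some members. In 183 of the 250 (73.2%) both ends of the circle coincided with ends of listed pieces, against 79.5% in the remaining circRNAs. Part of this contrast follows from the span rule, since a single listed exon can reach both ends only of a short circle. All 35 long-span circRNAs with a single listed exon lacked a listed piece at one end or both. This had to be so, because their listed spliced lengths were at most 667 bases. Of the 73 with 2 exons, 25 lacked one too. The listed pieces of these circles thus stop short of the junction on at least 1 side. Circles with 3 exons had both ends listed in 74 of 78 cases, and those with 4 exons in 41 of 42.

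The 250 lay on 29 chromosomes and, in 3 cases, on unplaced sequences, with the largest numbers on chromosome 1 (21), chromosome 10 (19) and chromosome 8 (18). The 245 with a host gene arose from 190 genes, of which 142 gave 1 long-span circRNA, 41 gave a pair and 7 gave 3. Of these genes, 99 also gave shorter circRNAs. A long-span circRNA shared its start or end with another circRNA in 56% of cases, against 25.6% of the remaining circRNAs, and 50.4% against 10% enclosed a shorter circRNA on the same strand. Larger intervals have more room for other circles, and no test was made of these shares.

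The genes with 3 long-span circRNAs were MARK3, CEP112, ZEB1, LMO7, VRK1, ADGRA3 and ADAMTS9. In VRK1, a nuclear kinase, all 3 began at position 60996150 of chromosome 21 and ran 21839, 25699 and 41581 bases. In CEP112, a centrosomal protein, 3 long-span circRNAs stood among 11 circRNAs, and in LMO7 3 among 9. In ZEB1, a repressor of epithelial genes, circ_0006966 had the largest span of all, 93141 bases with 3 listed exons and 499 bases of spliced length. The following spans in size were those of RUNX2 (circ_0010317, 87122 bases), STAU2, a double-stranded RNA binding protein (circ_0007343, 85551 bases), an interval without host gene (circ_0009177, 83830 bases, without reads in these libraries) and MKLN1, which encodes muskelin (circ_0002214, 74179 bases).

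The abundance of long-span circRNAs was close to that of the rest. The deposited TPM is the count per 1000000 junction reads of a library and has no length term. The median of the members' mean TPM was 484 against 449 in the remaining circRNAs, with quartiles of 329 and 826 against 301 and 811, and reads were found in all 10 libraries for 55.6% against 51.2%. Span and mean TPM had a rho of -0.0195 across the 250, while spliced length and mean TPM had a rho of 0.303. Across all 1327 circRNAs these were 0.00582 and 0.197. The median TPM of the 250 lay between 488 and 525 in IMPA libraries and between 449 and 520 in IMA libraries, so that the groups overlapped.

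As a share of all junction reads, long-span circRNAs took 15.8%, 16.3%, 15.9%, 16.4% and 16.5% in IMPA1 to IMPA5 and 16.7%, 16.6%, 16.1%, 17.5% and 16.8% in IMA1 to IMA5. The means were 16.2% ± 0.296 and 16.7% ± 0.529 (SD, n = 5 each), and the ranges overlapped through IMA3. These shares were below the 18.8% that the long-span circRNAs make up by number. Each IMPA library detected 225 to 232 of the 250 (90.0% to 92.8%) and each IMA library 214 to 224 (85.6% to 89.6%). Of the remaining circRNAs, 91.6% to 94.4% were detected in IMPA libraries and 83.2% to 89.6% in IMA libraries. Groups did not overlap in either set, and 4 of 5 IMA libraries held fewer junction reads than any IMPA library.

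The most abundant long-span circRNA was circ_0004355 of KDM4C, a histone demethylase, with 57, 64, 87, 62 and 94 reads in IMPA and 59, 51, 65, 60 and 39 in IMA. It ranked number 16 among all circRNAs by mean TPM. circ_0007990 of KIFAP3, an adaptor of kinesin motors, followed with 42 to 65 reads per IMPA library and 37 to 53 per IMA library over a span of 51821 bases. The next were WWOX (circ_0008835), FNIP1 (circ_0004071), FBXW8 (circ_0008331), TMEFF1 (circ_0004638), LMO7 (circ_0006499), ZEB1 (circ_0006966), CAAP1 (circ_0004243) and WHSC1 (circ_0003129), with mean TPM from 1867 to 2346. Among these 10, LMO7 and WHSC1 passed the test of change below, which 12 of all 1294 circRNAs tested (0.927%) passed. The SE of their log2 changes was at most 0.22, against a median of 0.46 over the long-span circRNAs tested. The share of calls among equally abundant circRNAs is not given. For the other 8, the log2 change of junction reads from IMPA to IMA ran from -0.70 to 0.30, with edgeR adjusted p of at least 0.0922.

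To set circle against linear transcript, junction reads were weighted by 2 and divided by their weighted number plus the non-junction reads, which pass a splice site of the junction linearly. This gave the circular share. The weight is used because a circle has 1 junction where the linear transcript has a site at either end. Over the 246 with reads, pooled over libraries, its median was 9% (quartiles 4.89% and 17.6%), against 8.67% in the remaining circRNAs and 12% in the 219 circRNAs of at most 2 kb. Span and circular share had a rho of -0.0222 across the 246. Most hosts had far more linear than circular reads at these sites, and the share exceeded 50% in 7 long-span circRNAs (2.8%, against 3.81% of the rest).

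The circles with the highest and lowest shares among those read in every library were picked after their values were seen. The highest belonged to circ_0008835 of WWOX, an oxidoreductase with WW domains (69.5%), followed by LRRC69 (circ_0007542, 67.0%), KDM4C (circ_0004355, 63.7%), CEP128 (circ_0005200, 58.9%) and CENPJ (circ_0006544, 53.9%). CEP128 and CENPJ both encode centriolar proteins and their circles had 1 listed exon each, while those of WWOX and LRRC69 had 4. At the other end, circ_0006496 and circ_0006504 of LMO7 stood at 0.581% and 0.721% and circ_0000720 of APP, the amyloid precursor protein, at 0.727%. These circles came from strongly read genes: circ_0000720 had a median of 1683 non-junction reads in IMPA and 1995 in IMA.

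The median circular share per library was 9.45%, 7.67%, 8.20%, 8.22% and 7.88% in IMPA1 to IMPA5 and 10.1%, 10.02%, 9.28%, 11.1% and 9.95% in IMA1 to IMA5. The mean was 8.28% ± 0.692 for IMPA and 10.1% ± 0.656 for IMA (SD, n = 5 each), and the groups overlapped, since IMPA1 lay above IMA3. In the remaining circRNAs the values were 7.96% ± 0.555 and 10.02% ± 0.499 (SD, n = 5 each) without overlap. Both means were higher in IMA. Over the circRNAs read in every library, each library held 18.4 to 20.7 (IMPA) or 16.2 to 17.6 (IMA) non-junction reads per junction read. No test was made of these medians, since circles undetected in a library have no value in it. Over the long-span circRNAs read in every library, the mean of the library medians was 10.02% in IMPA and 12.2% in IMA.

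**Figure D2:**
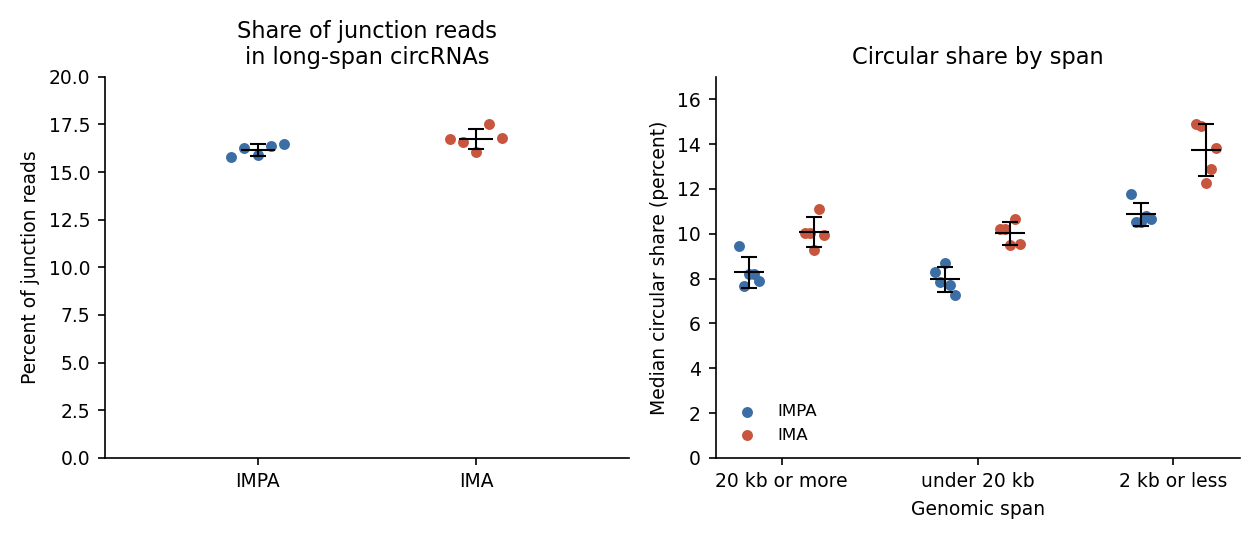
Left, percent of junction reads of each library on long-span circRNAs. Right, median circular share in percent of circRNAs of 20 kb or more, under 20 kb and, within the latter, of 2 kb or less. Blue points are the 5 IMPA libraries and red points the 5 IMA libraries, with mean and SD in black. The share of reads ran from 15.8% to 17.5% over both groups, and the mean circular share was higher in IMA in each span class.

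The main comparison asked which long-span circRNAs changed between preadipocytes and adipocytes. Junction reads of 1294 circRNAs with reads in at least 5 libraries were tested together with edgeR's quasi-likelihood test and Benjamini-Hochberg adjustment over all of them, at 0.01. Of the long-span circRNAs, 240 passed this filter and 10 did not, and none of the 240 was without reads in a whole group. circ_0006499 of LMO7 rose and circ_0003129 of WHSC1 fell. That is 1 of 240 in each direction (0.417%), against a background of 0.464% in each direction over all circRNAs tested (6 higher and 6 lower), so that the share of changed circRNAs was near the background (2 of 240, 0.833%, against 0.927% in either direction). At an unadjusted p under 0.05 there were 26 (10.8%) against 13.1%.

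The middle of the distribution was close to 0. The median log2 change was -0.01 over the 240 and -0.08 over all 1294, and 48.8% and 44.9% of the values were above 0. These medians follow the scaling: with clean reads as library sizes they were -0.34 and -0.42, and with uniquely mapped reads 0.23 and 0.17. In the study's mapping statistics, the share of clean reads mapped uniquely was lower in each IMA library than in any IMPA library, and its part in these results was not tested. With clean reads, calls of long-span circRNAs were 1 higher and 3 lower, and with uniquely mapped reads 1 higher and 0 lower. Over all circRNAs, lower calls likewise became more numerous with clean reads and fewer with uniquely mapped reads, as counted in the closing section. The groups did not overlap in normalized TPM in 5 long-span circRNAs higher in IMA (2.08%) and in 5 lower (2.08%), against 2.24% and 2.16% of all tested (4.17% against 4.4% in either direction).

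The junction reads of circ_0006499 of LMO7 were 13, 6, 16, 10 and 19 in IMPA1 to IMPA5 and 32, 25, 50, 24 and 31 in IMA1 to IMA5. Every IMA library was above every IMPA library although the IMA libraries held fewer reads in all. Normalized TPM (with TMM factors) averaged 948 ± 293 over IMPA and 2917 ± 660 over IMA libraries (SD, n = 5 each), and the log2 change was 1.60 with an SE of 0.22 (edgeR adjusted p = 1.25e-05). It passed under all 19 alternatives tried, with adjusted p from 1.95e-07 to 0.00145. Its circular share was 1.95% ± 0.481 in IMPA and 6% ± 1.12 in IMA (mean over libraries and SD, n = 5 each), without overlap.

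LMO7 carried 8 further circRNAs, with log2 changes from -0.48 to 1.53, and differences between these circles were not tested. circ_0006511, which lies inside circ_0006499 and has the same upper end, had 5 to 13 reads per IMPA library and 18 to 28 per IMA library, with a log2 change of 1.53 (SE 0.26, edgeR adjusted p = 0.000308). circ_0006514, with this end too, had 0 to 5 and 3 to 4 reads (log2 change 1.20, SE 0.78) and did not pass (edgeR adjusted p = 0.518). Values of circ_0006515 (1.36, SE 0.53), circ_0006510 (0.91, SE 0.58) and circ_0006502 (0.52, SE 0.21) were above 0 without passing. circ_0006507 had -0.48 (SE 0.76). The other long-span circles of the gene did not pass either: circ_0006496 had 2 to 8 reads per IMPA library and 2 to 6 per IMA library (log2 change 0.04, SE 0.54) and circ_0006504 had 3 to 15 and 2 to 8 (log2 change -0.41, SE 0.49). circ_0006499 and circ_0006504 each enclose 5 of the other circles.

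**Figure D3:**
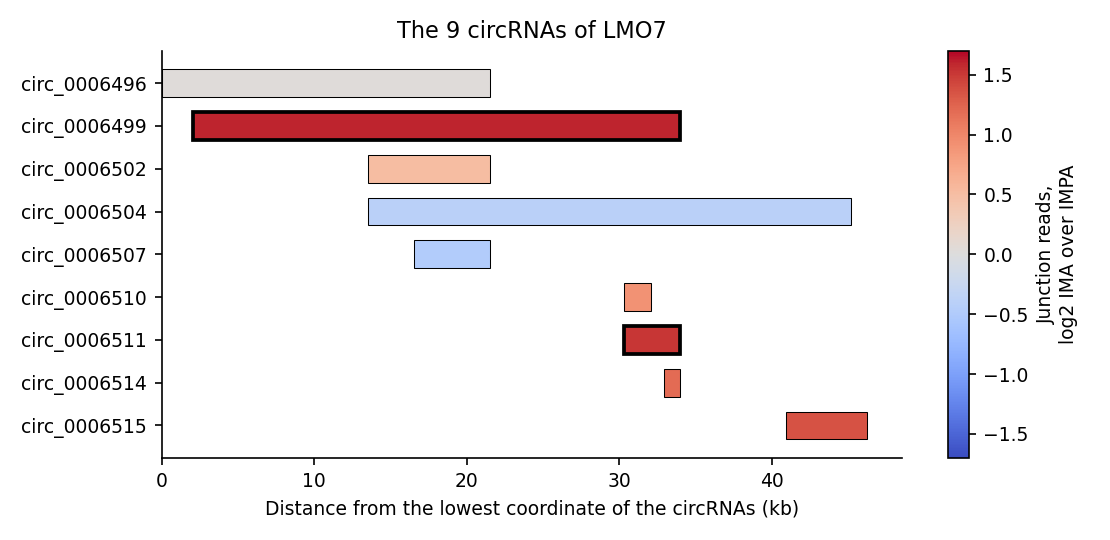
The 9 circRNAs of LMO7, each drawn from its lower to its upper end as a distance in kb from the lowest of their coordinates, coloured by the log2 change of junction reads from IMPA to IMA. Thick outlines mark circ_0006499 and circ_0006511, which passed the test at 0.01 and end at the same position; circ_0006496 and circ_0006504, the other long-span circles, have values near or under 0.

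circ_0003129 of WHSC1 had 32, 27, 34, 34 and 33 reads in IMPA1 to IMPA5 and 16, 13, 13, 15 and 15 in IMA1 to IMA5. The groups were far apart and each was narrow. Normalized TPM was 2442 ± 253 and 1326 ± 187 (SD, n = 5 each), and the log2 change was -0.88 with an SE of 0.20 (edgeR adjusted p = 0.00935). This call lay just inside the threshold: it was lost whichever library was left out (adjusted p = 0.0129 to 0.0493), and 4 of 19 alternatives kept it, with adjusted p from 0.000392 to 0.128 and a negative change in all. The circular share was 36.8% ± 4.65 in IMPA and 30.8% ± 5.78 in IMA (mean over libraries and SD, n = 5 each), with overlap. A pair of shorter circles lies within it and did not pass: circ_0003127, which has its lower end, with 2 to 12 and 0 to 10 reads, and circ_0003133, which has its upper end, with 0 to 9 in both groups.

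Further long-span circRNAs with higher values in IMA and the smallest p-values did not pass the adjusted threshold (edgeR adjusted p = 0.073 to 0.35 for 8 of them). circ_0010443 of FHOD3, a formin that organises actin in muscle sarcomeres, had 0, 0, 2, 2 and 0 reads in IMPA and 6, 5, 3, 4 and 6 in IMA (log2 change 2.66, SE 0.77, adjusted p = 0.073). Its groups did not overlap, but with 3 of 5 IMPA libraries at 0 the fitted size depends on the prior count, and its host is on the list of striated muscle genes. The paper lists this circle as up regulated, by DEGseq at a q-value under 0.01. circ_0009888 of MARK3, a kinase that acts on microtubule-associated proteins, had 4, 3, 3, 0 and 6 reads in IMPA and 10, 8, 9, 3 and 14 in IMA (log2 change 1.69, SE 0.49, adjusted p = 0.073). circ_0009889 of the same gene, which has the same upper end and starts slightly further on, had 19 to 22 and 17 to 31 reads (log2 change 0.41, SE 0.22).

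circ_0005130 of QKI, the gene of the RNA-binding protein Quaking named above, spanned 65679 bases and had 9, 12, 15, 11 and 12 reads in IMPA and 20, 11, 21, 15 and 18 in IMA. Only IMA2 lay within the IMPA range of normalized TPM, and the log2 change was 0.78 (SE 0.25, edgeR adjusted p = 0.129). circ_0005128, with the same start and a span of 20956 bases, had 14 to 33 reads per IMPA library and 10 to 39 per IMA library (log2 change 0.33, SE 0.26). Of the remaining 5, circ_0000741 of FNDC3B, a regulator of adipocyte differentiation, had 0 to 2 reads per IMPA library and 2 to 3 per IMA library, and no fold is given since both groups had at most 3 reads in every library. A further 3 arose from AEBP2, a cofactor of Polycomb repression (circ_0002976, 1.72), DEPTOR, an inhibitor of mTOR signalling (circ_0007531, 0.60) and PHKB, a subunit of phosphorylase kinase (circ_0008636, 0.59), with log2 changes in parentheses. AEBP2 had 0 to 3 reads per IMPA library and 3 to 10 per IMA library (SE 0.67). With IMPA4 and IMPA5 at 0, its fitted size depends on the prior count. DEPTOR had 6 to 16 and 8 to 18 reads (SE 0.28) and PHKB 6 to 17 and 10 to 20 (SE 0.28). circ_0008512 of ZNF827 had 2, 2, 0, 0 and 0 reads in IMPA and 2, 3, 5, 4 and 2 in IMA.

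The 8 with lower values in IMA and the smallest p-values had edgeR adjusted p from 0.0922 to 0.231. circ_0008835 of WWOX had 30, 29, 39, 47 and 43 reads in IMPA and 19, 13, 15, 20 and 29 in IMA (log2 change -0.70, SE 0.21). circ_0006544 of CENPJ had 23, 34, 28, 24 and 40 reads in IMPA and 15, 8, 12, 25 and 12 in IMA (log2 change -0.77, SE 0.24). In both, IMA libraries reached into the IMPA range after normalization. Both passed with clean reads as library sizes (edgeR adjusted p = 0.00331 and 0.00588), a setting in which lower calls over all circRNAs were more numerous too.

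circ_0009848 of VRK1 had 10, 7, 15, 9 and 12 reads in IMPA and 4, 2, 7, 4 and 3 in IMA (log2 change -1.12, SE 0.40, edgeR adjusted p = 0.178), without overlap in normalized TPM. The other long-span circles with its start, circ_0009849 and circ_0009851, had log2 changes of -0.59 (SE 0.26) and -0.57 (SE 0.41) and did not pass. circ_0005249 of PCNX1 had 9 to 13 reads per IMPA library and 2 to 8 per IMA library (log2 change -1.09, SE 0.39), without overlap. The others were PPP3CA, the catalytic subunit of calcineurin (circ_0003213, -1.83), FGFR2, a fibroblast growth factor receptor (circ_0010933, -1.39), and a pair of LOC102191110 (circ_0011569, -2.00, and circ_0011571, -0.81), which have the same upper end. Reads per IMPA and IMA library were 3 to 9 and 0 to 3 for PPP3CA (SE 0.66) and 3 to 20 and 0 to 5 for FGFR2 (SE 0.55). They were 2 to 8 and 0 to 3 for circ_0011569 (SE 0.75) and 7 to 26 and 5 to 9 for circ_0011571 (SE 0.33). Where some IMA libraries had 0 reads, the fitted size depends on the prior count.

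**Figure D4:**
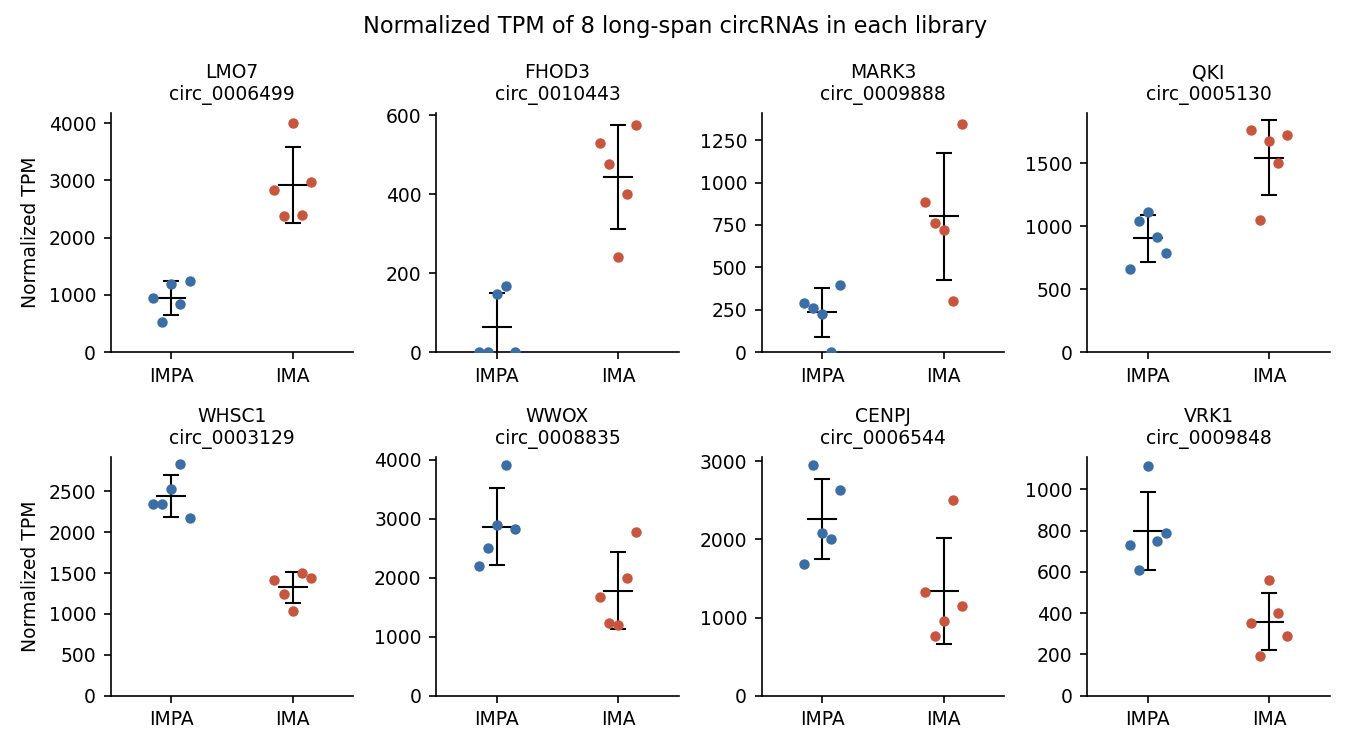
Normalized TPM of 8 long-span circRNAs in each of 5 IMPA (blue) and 5 IMA (red) libraries, with mean and SD in black; each axis starts at 0. LMO7 and WHSC1 passed the test at 0.01, and the other 6 had adjusted p from 0.073 to 0.178. The groups are apart in LMO7, FHOD3, WHSC1 and VRK1 and overlap in MARK3, QKI, WWOX and CENPJ.

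Of the 7 genes with 3 long-span circRNAs, MARK3, CEP112, ZEB1, LMO7 and VRK1 had the most junction reads on them, and circ_0006499 was the 1 of their 15 that passed. Over all circRNAs tested, 12 of 1294 (0.927%) passed in either direction, and these numbers of circles are too small to set against that share. The other 14 of the 15 circles had log2 changes from -1.50 to 1.69 and edgeR adjusted p of at least 0.073. Of the 6 circles of ADGRA3 and ADAMTS9, 0 passed, with log2 changes from -0.78 to 0.04 and edgeR adjusted p of at least 0.35. In ZEB1, circ_0006966 had 23, 24, 15, 26 and 28 reads in IMPA and 26, 28, 16, 24 and 17 in IMA, whereas circ_0006958 and circ_0006962, which end near its start, had 5 to 8 and 2 to 12 reads per IMPA library and 3 to 8 and 3 to 5 per IMA library. In CEP112, circ_0009227 had 3 to 11 reads per IMPA library and 0 to 4 per IMA library (log2 change -1.50, SE 0.65, adjusted p = 0.259). The shorter circ_0009231, with the same upper end, did pass. It had 42 to 72 reads per IMPA library and 25 to 32 per IMA library (log2 change -0.70, SE 0.16, edgeR adjusted p = 0.00856). A further circle with this end, circ_0009229, did not pass (log2 change -1.27, SE 0.64).

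Host genes were grouped by function in lists chosen with earlier results of these data known, which held 90 of the 250. In each list, the hosts of the most read circles are named. Regulators of transcription and chromatin hosted 20 long-span circRNAs on 15 genes, led by KDM4C, WHSC1 and ZEB1; 0 of 20 rose and 1 (WHSC1, a call lost whichever library was left out) fell, with a median log2 change of 0.04. Regulators of actin, microtubules and small GTPases hosted 19 on 12 genes, led by LMO7 and CEP112; 1 (LMO7) rose and 0 fell, with a median of -0.18. Over all circRNAs tested, 0.464% were called in each direction. The median over all circRNAs tested was -0.08, and -0.01 over the long-span circRNAs.

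No long-span circRNA of the other lists passed in either direction, and their shorter circRNAs are not counted here. Kinases, phosphatases and signalling proteins hosted 17 (16 tested, median log2 change -0.16, led by MARK3 and RYK), ubiquitin ligases and deubiquitinases 12 (0.06, led by FBXW8 and HERC4), extracellular matrix and adhesion genes 12 (-0.52, led by ADAMTS9 and FBN2), RNA-binding and splicing proteins 8 (0.52, led by QKI and CNOT2) and membrane trafficking genes 5 (0.38). Striated muscle genes hosted 1 (FHOD3), fibroblast and matrix genes 1 (LTBP1) and cell cycle genes 1 (DIAPH3), while adipocyte genes and endothelial and blood cell genes hosted no long-span circRNA. In the smallest lists single circles set the median.

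Non-junction reads show how the linear transcripts read at the same splice sites moved. The files give them only where a circle had junction reads, so 690 circRNAs with reads in every library were tested, 139 of them long-span, on 118 hosts. Non-junction reads rose at 17 and fell at 16 of the 139 (12.2% and 11.5%), against 11.6% and 10.1% of the 690 (edgeR, adjusted p under 0.01). This is again near the background (59 of 139, 42.4%, at an unadjusted p under 0.05, against 44.8%). The 33 lay on 29 hosts, and circles that share an end share reads. The split followed the scaling, with 9 higher and 24 lower without TMM and 10 and 20 with uniquely mapped reads as library sizes. Without IMA4, 11 were higher, and without IMA2, 9 were lower.

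The rise with the smallest p-value was at circ_0000720 of APP, where normalized non-junction reads (per 1000000 non-junction reads, with TMM) lay between 7412 and 8966 in IMPA and between 13958 and 15031 in IMA. The log2 change was 0.81 (SE 0.06, edgeR adjusted p = 3.23e-13). Its junction reads were 3 to 9 and 2 to 11, without a called change. Reads also rose at FAM188A (circ_0006922, 0.52), at both long-span circles of ERI3, an exoribonuclease (circ_0001564, 0.40, and circ_0001569, 0.43), and at STRN3, a subunit of phosphatase complexes (circ_0009732, 0.39), all as log2 changes and without overlap of the groups. None of these had a called change of junction reads, and neither had circ_0004528 of UBAP2, where non-junction reads rose most (0.85, SE 0.16).

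Non-junction reads fell at MYH10, a non-muscle myosin heavy chain (circ_0008987, log2 change -0.54, from 4326 ± 516 to 2984 ± 300, SD, n = 5 each). They also fell at the integrin subunit gene ITGA4 (circ_0000924, -0.44), at TMEFF1 (circ_0004638, -0.53), at PHLPP1, a phosphatase acting on Akt (circ_0010669, -0.71), and at WWOX (circ_0008835, -1.04). At WWOX, normalized non-junction reads lay between 167 and 205 in IMPA and between 75.9 and 110 in IMA.

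At circ_0006499 of LMO7, non-junction reads were 1185, 983, 1379, 1133 and 1558 in IMPA and 954, 961, 1205, 917 and 946 in IMA. After normalization they rose, with a log2 change of 0.26 (SE 0.06, edgeR adjusted p = 0.00124; 0.0108 without TMM). At circ_0003129 of WHSC1 they were 104, 73, 122, 112 and 156 in IMPA and 59, 64, 95, 57 and 58 in IMA, and the log2 change of -0.19 (SE 0.12) did not pass (adjusted p = 0.239).

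Across the 139, the log2 changes of junction and non-junction reads had a rho of 0.173, and 0.193 across all 690, as a description over circRNAs whose junction counts are low. The SE of the log2 change had a median of 0.46 for junction reads over the 240 tested and of 0.10 for non-junction reads over the 139. Of the 33 with changed non-junction reads, 22 had a junction change of the same sign. The same count is not given over all circRNAs, so it describes these 33 only, some of which share a host.

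**Figure D5:**
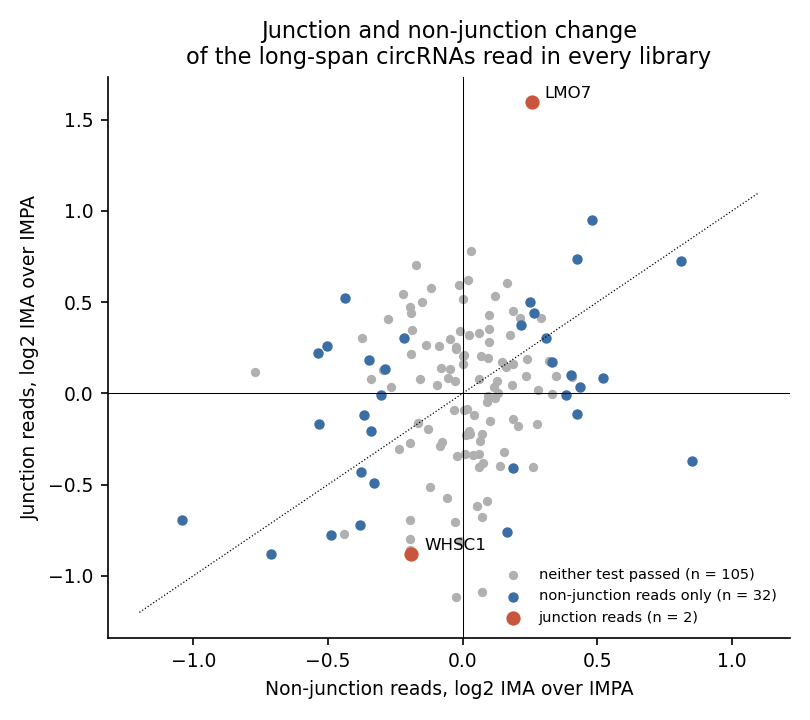
Log2 change of junction reads (vertical) against that of non-junction reads (horizontal) from IMPA to IMA for the 139 long-span circRNAs read in every library. Red points passed the junction test (2), blue points the non-junction test only (32) and grey points neither (105); the dotted line marks equal change. LMO7 lies far above this line.

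Whether the circle changed apart from the linear reads was tested as the difference of the log2 changes. It passed for 1 of the 139, circ_0006499 of LMO7, where junction reads rose by 1.37 more on the log2 scale than non-junction reads (SE 0.23, edgeR adjusted p = 8.9e-07). The background was 0.58% higher and 0.145% lower of the 690, and 0.719% and 0% of the 139 (0.725% against 0.719% in either direction). For 0 lower calls, the count at an unadjusted p under 0.05 in either direction was 18 of the 139 (12.9%), against 16.7% of the 690. The call of LMO7 held under all 13 alternatives of this test, with adjusted p from 9.06e-08 to 0.000201.

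The next members did not pass. Values above 0 belonged to circ_0005130 of QKI (0.78, SE 0.27, edgeR adjusted p = 0.085), circ_0008987 of MYH10 (0.79, SE 0.31), circ_0009084 of KANSL1, a subunit of a histone acetyltransferase complex (0.78, SE 0.30), and circ_0000924 of ITGA4 (0.98, SE 0.44). At MYH10, KANSL1 and ITGA4 the non-junction reads fell while the junction reads had no called change. Values below 0 belonged to circ_0004528 of UBAP2 (-1.21, SE 0.42), circ_0005249 of PCNX1 (-1.15, SE 0.38), circ_0009848 of VRK1 (-1.09, SE 0.38), circ_0007297 of EIF3E, a translation initiation factor subunit (-0.90, SE 0.34), and circ_0003129 of WHSC1 (-0.68, SE 0.25), with adjusted p of at least 0.073.

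The deposited predictions pair miRNAs with the circRNAs by name. Long-span circRNAs had a median of 9 predicted miRNAs on the ring, as did the remaining circRNAs, and 72.8% against 75.5% had one predicted across the junction. Across the 250, the number on the ring had a rho of 0.681 with the spliced length and of -0.013 with the span. Across all 1327 these were 0.645 and -0.014. The most, 35, were listed for circ_0006317 of ATAD2B, a chromatin protein with a bromodomain, followed by 27 each for circ_0006315 of the same gene and circ_0004639 of TMEFF1, which were named after their values were seen. circ_0006499 had 23 and circ_0003129 had 5.

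Circles on both sides of the 20 kb limit are given as values. Just inside it lay circ_0008487 of ELF2 (20005 bases), circ_0010675 of PHLPP1 (20029) and circ_0009694 of UBE2Q2 (20066), with mean TPM of 403, 474 and 470. Just outside lay circ_0005321 of SLC38A6 (19977 bases), circ_0002379 of SEPT7 (19961) and circ_0001762 of AGAP1 (19852), with mean TPM of 423, 360 and 211. Within the set, 141 spanned 20 to 30 kb, 84 spanned 30 to 50 kb and 25 spanned more. Their median spliced lengths were 315, 308.5 and 319 bases. Their median log2 changes of junction reads were -0.09, -0.05 and 0.21, over 136, 81 and 23 circRNAs tested, of which 44.9%, 48.1% and 73.9% lay above 0. Over all circRNAs tested, 44.9% lay above 0. Of the 23, 2 had an unadjusted edgeR p under 0.05 (8.70%, against 13.1% over all). The span classes were not tested against one another, and such medians follow the scaling.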

How the data were processed

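RNA depleted of ribosomal RNA was sequenced. The authors kept circRNAs whose location both CIRI2 and find_circ gave, the latter with 2 or more reads; versions and genome build are not given in the sources used here. The deposited counts are junction reads per circRNA and library, not normalized. The deposited TPM is a CPM, the count scaled to a library total of 1000000 junction reads, as checked (largest difference 4.99e-06). Other deposited columns hold locations, exon pieces, host genes, non-junction reads and the names of miRNAs predicted with miRanda and TargetFinder; 10 further sample names there were not used.

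Members were taken by the deposited length (at least 20000 bases); it differed from the coordinates in 2 of 1327 circRNAs, 0 of them long-span. Counts were tested with edgeR 4.0.16 (R 4.3.3; TMM, glmQLFit, glmQLFTest, prior count 0.125) over circRNAs detected in 5 or more of 10 libraries, with Benjamini-Hochberg adjustment over all tested, at 0.01. Non-junction reads are listed only beside junction reads, so that test and the difference of log2 changes used circRNAs read in all 10 libraries, not in 5 as planned. The junction test and the test of the difference were also run on simulated counts with known changes. Host symbols of 245 members matched RefSeq (ARS1.2). Circular shares and medians were computed in Python 3.11.15 and have no test.

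The members, lists and rule for naming were chosen with earlier results of these data known. Named are members past the threshold, the 8 next in each direction by p, the 10 most abundant, the 5 largest, those of the 5 genes with most members (7 tied at 3, ranked by summed junction reads), the 5 with the smallest p in each direction of the other tests, and the 3 nearest the limit on either side. Replicate numbers were checked for pairing and not taken as pairs. Alternatives were DESeq2 1.42.0 (size factors, Wald test), limma 3.58.1 voom, no TMM, other library sizes, filters and thresholds, the replicate block and each library left out. Reads carry no molecular identifiers.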

Additional observations from a re-analysis of the deposited data

Results flagged for a closer look

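Of 134 groups of 5 libraries checked for the measures per library and the named circRNAs, 8 held a library whose gap to the nearest other took up more than 0.71 of the range of its group, which chance gives in about 1 of 20 groups. In IMPA, the number of long-span circRNAs detected was lowest in IMPA4 (225 against 230 to 232; 0.714 of the range). In IMPA, the highest library stood apart in normalized TPM for circ_0000741 of FNDC3B (1, the other 4 being at 0) and circ_0000924 of ITGA4 (0.716), and the lowest for circ_0001569 of ERI3 (0.716) and circ_0008636 of PHKB (0.75). In IMA, the highest stood apart for circ_0004528 of UBAP2 (0.726). In normalized non-junction reads, the lowest IMPA library stood apart at circ_0000924 (0.724) and the highest IMA library at circ_0009732 of STRN3 (0.718).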

How the results depend on the processing

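The rise of circ_0006499 of LMO7 (1 long-span circRNA higher in IMA) remained under every alternative of the junction test. The count lower in IMA, 1 with WHSC1, was 0 without TMM, by DESeq2's Wald test, by limma voom and with uniquely mapped reads, 3 with clean reads, and 0 to 0 over the fits without each library. The replicate numbers of the libraries were not taken as pairs: deviations of same-numbered libraries correlated at -0.0524 to 0.0105, and 1 of 10 libraries correlated best with its own number. With the replicate block, junction calls were 1 higher and 0 lower, and non-junction calls 16 and 17. Non-junction counts, 17 higher and 16 lower, were 9 higher without TMM, 10 higher with uniquely mapped reads (chosen after the data were seen), 26 lower at 0.05, and 11 to 16 higher and 9 to 16 lower without each library. Over all circRNAs, the 6 higher by junction reads were 3 by DESeq2's Wald test and with a mean count of at least 10, and the 6 lower were 2 without TMM, 1 with uniquely mapped reads, 10 with a mean count of at least 10, 12 at 0.05 and 20 with clean reads. The 80 higher and 70 lower by non-junction reads were 48 and 106 without TMM, 49 and 93 with uniquely mapped reads, and 127 and 119 at 0.05. The share of junction reads in IMPA and IMA was 37.4% and 38.6% for spans of 10 kb or more, 1.81% and 2.21% for 50 kb or more, and 17.2% and 17.8% without the 5 most abundant circRNAs. The median circular share was 4.32% and 5.31% with junction reads counted once, 10.02% and 12.2% over members read in every library, and 6.23% and 7.69% with pooled reads. The median TPM was 529 and 581 over counts above 0, 542 and 656 for 50 kb or more, and 472 in IMPA for 10 kb or more. Of 648 refits of 40 named values, 629 kept direction and side of the threshold, 17 lost the call (15 of WHSC1, 2 of the LMO7 non-junction change), 2 gained it and none turned direction. Without the filter on reads, the non-junction test and the test of the difference were not run, because those reads are missing where a circle was not read. The cause of these shifts was not tested. Most junction counts are under 10.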
